A study of Homo sapiens with 18 samples.

Results

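HRAS, NRAS, DUSP4, DUSP5, DUSP6, SPRY2, SPRY4, SPRED1 and PHLDA1 were followed in RNA sequencing of 3 related human breast epithelial cell lines. The genes were chosen by name, as 2 RAS genes and 7 genes of the feedback on the mitogen-activated protein kinase (MAPK) pathway, and all 9 were found among the 35933 genes with values. MCF10A is a spontaneously immortalized line that does not form tumours. MCF10AT1 was made from MCF10A by stable integration of a mutated HRas, and MCF10CA1h (MCF10-CA1H in the labels) was derived from MCF10AT1 by passage as mouse xenografts, so that both carry the introduced HRAS and MCF10A does not. Each line was sequenced as a control negative CRISPR line, called control below, and as a METTL3 CRISPR knockdown line, called M3 below, with 3 libraries (a, b and c) in each of the 6 groups. METTL3 is the main enzyme that writes N6-methyladenosine on mRNA. All cells were grown in medium with horse serum, insulin, hydrocortisone, cholera toxin and epidermal growth factor, and the mutated HRas is present in the MCF10AT1 and MCF10CA1h controls as well. According to the study's methods the CRISPR cells were diluted to single cells for clonal selection, so an effect of the guide and a difference between clones cannot be told apart, and the p-values measure the spread between libraries, which may be technical.

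RAS proteins are small GTPases that, when loaded with GTP below an activated growth factor receptor, recruit RAF kinases and start the RAF, MEK and ERK cascade. Active ERK induces genes that restrain the same cascade, and their transcripts are widely read as a sign of how strongly it runs. Among them the dual-specificity phosphatases (DUSP) remove phosphate from MAP kinases, the Sprouty proteins (SPRY) dampen signalling between receptor tyrosine kinases and RAS, and SPRED1 brings neurofibromin to the membrane, where it switches RAS off. PHLDA1 encodes a pleckstrin homology-like domain protein whose transcript rises with ERK activity.

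Values are the authors' normalized counts, which correct for library depth and were not divided by gene length. Levels were therefore compared between samples and never between genes. The values of a library summed to between 21347352 and 31681834. The mRNA of METTL3 checked the labels only in part: its log2 change in M3 against control was 0.33 in MCF10A (adjusted p = 0.618), -0.17 in MCF10AT1 (adjusted p = 0.707) and -0.49 in MCF10CA1h (adjusted p = 0.0234, limma), so the M3 groups are named for their label. The study itself reported knockdown of the protein by Western blot in every line, moderate in MCF10CA1h. By real-time PCR it reported a smaller decrease of the mRNA in the knockdown lines. In the values used here the MCF10A mean went the other way, from 632 in control to 810 in M3, without passing. It also reported less N6-methyladenosine in total RNA, significantly so in MCF10AT1 and MCF10CA1h but not in MCF10A. The 10 epithelial markers summed to 115055 to 165592 in the MCF10AT1 control libraries and to 34712 to 59012 in the MCF10AT1 M3 libraries, where ESRP1, an epithelial splicing regulator, had a mean under 10. The 9 mesenchymal markers summed to 3248 to 4764 in the former and to 118657 to 207397 in the latter. In MCF10A the epithelial sum was 246902 to 349877 in control and 293408 to 340010 in M3. In MCF10CA1h it was 332311 to 358468 in control and 455674 to 499925 in M3. The mesenchymal sum was 8801 to 15877 in MCF10A control and 5359 to 8043 in MCF10A M3. In MCF10CA1h the mesenchymal sum was 27289 to 32105 in control and 39430 to 50959 in M3. Only the epithelial sums of MCF10A overlapped between control and M3. In MCF10CA1h against MCF10A controls 6 of 9 mesenchymal markers were called higher and 0 lower. Of the 10 epithelial markers 4 were higher and 3 lower there. Of all 15652 genes tested in that comparison, 2979 were called higher and 2941 lower. Across the study the leukocyte marker PTPRC stayed between 0 and 5.3 in all 18 libraries. The endothelial marker PECAM1 did not stay as low, at 16 to 196 in MCF10A control and 332 to 531 in MCF10A M3 libraries. It was 225 to 849 in MCF10AT1 control and 377 to 635 in MCF10AT1 M3. In MCF10CA1h it was 77 to 123 in control and 26 to 60 in M3. The part of these marker differences in the results for M3 against control in any line and in the comparisons between lines was not tested. In such bulk samples a smaller share of cells with a transcript and less of it per cell cannot be told apart.

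Comparing M3 with control within each line asked how these genes stood after METTL3 targeting, and few of them differed beyond the spread between libraries. In MCF10A, 1 of the 9 passed an adjusted p of 0.05: DUSP5, a nuclear ERK phosphatase, was lower in M3, against a background of 2.65% of all genes tested, or 1.49% lower. In MCF10AT1, SPRY4 and PHLDA1 passed and both were higher in M3, 2 of 9 against 13.0% of all genes, or 7.07% higher. In MCF10CA1h none of the 9 passed in limma, against 12.8% of all genes. There 1 of the 9 (SPRY2) had an unadjusted p under 0.05, as did 4230 of all 15127 genes tested. Over the 9 genes the log2 changes had medians of -0.24, 0.62 and 0.01 (MCF10A, MCF10AT1, MCF10CA1h), beside 0.00, 0.02 and -0.02 over all genes tested. The libraries of M3 and control did not overlap for 2, 4 and 1 of the 9 genes in the 3 lines, and for 23.9%, 32.8% and 32.7% of all genes.

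**Figure D1:**
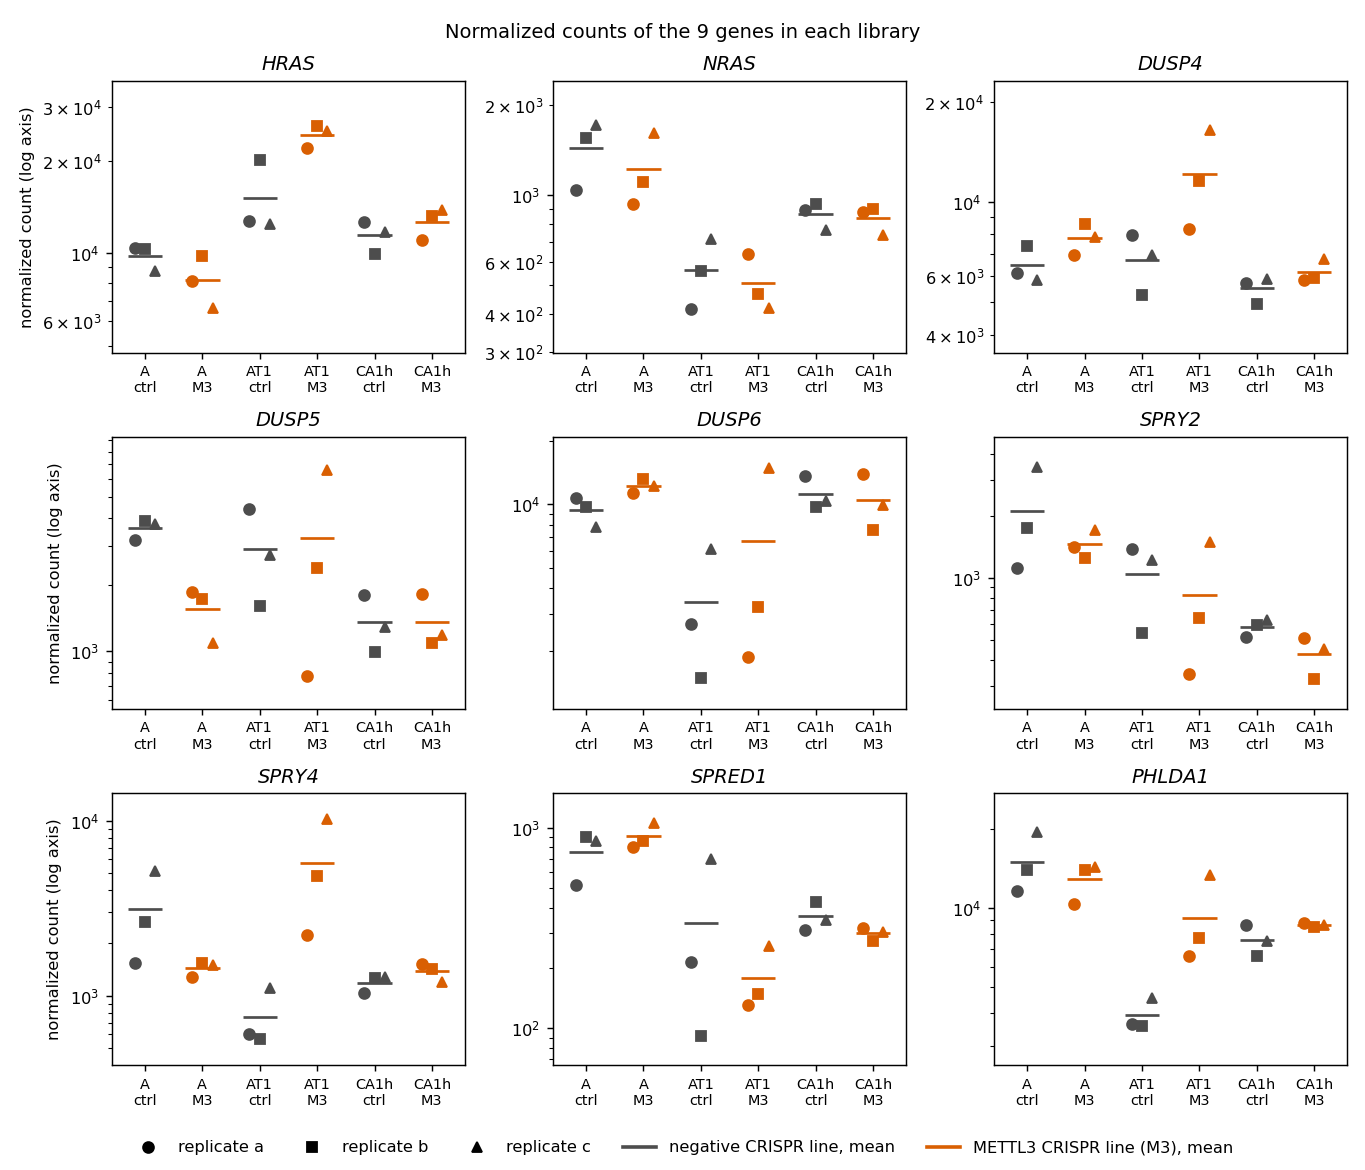
Normalized count (log axis, its range set per gene) of each of the 9 genes in each of the 18 libraries, with control (ctrl) in grey and M3 in orange, a marker shape per replicate letter and a bar at each group mean (n = 3). The 3 MCF10AT1 M3 libraries lie above every other library for HRAS, and SPRY4 in MCF10AT1 runs from 562 to 1098 in control and from 2219 to 10221 in M3.

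HRAS is the gene that was introduced in mutated form into MCF10AT1, and a gene-level value cannot separate the introduced from the native copy. It lies on chromosome 11, bases 532242 to 537321 of the minus strand (hg38), and shares that stretch with a long non-coding RNA gene on the other strand. The 250 bases before its RefSeq start are shown first because HRAS carries one of the differences between the lines that follow, and those of PHLDA1 and DUSP6 because these feedback genes differed between the control lines. All are RefSeq sequence of GRCh38.p14 on the minus strand, written in the direction of transcription, and 7 of the 9 genes had an entry. Capitals mark matches on either strand to an ETS motif (CCGGAAG, in 8.52% of 35116 RefSeq promoter windows of this length), an AP-1 motif (TGANTCA, 6.57%), a CRE (TGACGTCA, 1.65%) or a GC box (GGGCGG, 42.6%), none of which overlapped another in these windows.
HRAS, chr11:535577-535826: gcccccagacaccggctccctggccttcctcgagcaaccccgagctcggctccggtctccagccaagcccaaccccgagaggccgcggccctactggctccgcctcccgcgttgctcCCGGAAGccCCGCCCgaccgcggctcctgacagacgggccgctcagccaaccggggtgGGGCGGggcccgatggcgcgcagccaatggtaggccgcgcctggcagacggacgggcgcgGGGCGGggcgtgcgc
PHLDA1, chr12:76031777-76032026: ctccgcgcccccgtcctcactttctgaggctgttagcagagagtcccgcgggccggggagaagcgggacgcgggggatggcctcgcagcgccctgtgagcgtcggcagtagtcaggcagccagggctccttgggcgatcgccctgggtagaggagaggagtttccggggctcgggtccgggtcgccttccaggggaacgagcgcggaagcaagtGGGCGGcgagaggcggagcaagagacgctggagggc
DUSP6, chr12:89352502-89352751: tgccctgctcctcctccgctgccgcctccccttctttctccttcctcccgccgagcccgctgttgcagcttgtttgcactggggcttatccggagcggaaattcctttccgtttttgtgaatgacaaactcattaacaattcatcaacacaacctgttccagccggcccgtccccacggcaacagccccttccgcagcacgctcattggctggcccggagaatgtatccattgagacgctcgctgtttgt
The HRAS window holds 1 ETS match and 3 GC boxes and lies inside the longer gene of the GENCODE annotation, that of PHLDA1 holds 1 GC box, and that of DUSP6 holds none of these letters. A match is a stretch of letters and was not tested as a binding site.

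In control libraries a, b and c, HRAS stood at 10402, 10303 and 8778 in MCF10A, at 12707, 20146 and 12438 in MCF10AT1, and at 12633, 9960 and 11764 in MCF10CA1h. The MCF10AT1 controls all lay above the MCF10A controls, while the MCF10CA1h controls overlapped MCF10A and MCF10AT1. The difference between MCF10AT1 and MCF10A controls was 0.59 ± 0.22 on the log2 scale (SE, adjusted p = 0.0709, limma) and did not pass, although it did without MCF10AT1 control library c (adjusted p = 0.0206) and in a joint fit of all 18 libraries (adjusted p = 0.0291). In M3 libraries HRAS stood at 8139, 9767 and 6642 in MCF10A, at 22037, 26021 and 25059 in MCF10AT1, and at 11021, 13214 and 13791 in MCF10CA1h. Here the 3 lines did not overlap, with MCF10AT1 highest and MCF10A lowest. HRAS was 3.01-fold higher in MCF10AT1 than in MCF10A M3 libraries (log2 1.59, SE 0.17, adjusted p = 3.3e-05) and 1.56-fold higher in MCF10CA1h than in MCF10A (log2 0.64, SE 0.17, adjusted p = 0.0115). The latter call was lost without MCF10A M3 library c (adjusted p = 0.0535) or when all libraries were brought to equal sums (adjusted p = 0.0614).

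Within MCF10AT1 the 3 M3 libraries all exceeded the 3 controls for HRAS, yet the change of 0.72 ± 0.30 (SE) did not pass (adjusted p = 0.159; 0.01 in a joint fit of all 18 libraries), nor did those of -0.28 in MCF10A (adjusted p = 0.459) and 0.15 in MCF10CA1h (adjusted p = 0.461). The change in MCF10AT1 minus that in MCF10A, tested as an interaction across the 18 libraries, was 1.00 ± 0.28 (SE, adjusted p = 0.0163). It was past the threshold for 3 of the 9 genes and for 21.6% of all genes, always upward for the former and upward for 11.2% of the latter. For HRAS that call ended without MCF10A M3 library c (adjusted p = 0.0508) and with equal sums (adjusted p = 0.0509).

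NRAS, a close relative of HRAS that no line received, had the reverse order of lines. Its control libraries stood at 1037, 1549 and 1715 in MCF10A, at 418, 559 and 715 in MCF10AT1, and at 890, 934 and 765 in MCF10CA1h. The 3 lines did not overlap, MCF10A being highest and MCF10AT1 lowest. NRAS was 2.54-fold lower in MCF10AT1 than in MCF10A controls (log2 -1.35, SE 0.26, adjusted p = 0.00763), whereas its neighbours in this order, MCF10CA1h against MCF10A (log2 -0.70, adjusted p = 0.0583) and MCF10CA1h against MCF10AT1 (log2 0.64, adjusted p = 0.109), did not pass.

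The M3 libraries kept that order for NRAS, with 936, 1108 and 1613 in MCF10A, 638, 469 and 420 in MCF10AT1, and 875, 899 and 734 in MCF10CA1h. MCF10AT1 M3 was again below MCF10A M3 (log2 -1.24, SE 0.23, adjusted p = 0.00099). It was also below MCF10CA1h M3 (log2 0.73 for MCF10CA1h minus MCF10AT1, adjusted p = 0.0262), a call lost without MCF10AT1 M3 library b, MCF10CA1h M3 library a or MCF10CA1h M3 library b (adjusted p 0.0788 to 0.0849). Between M3 and control NRAS differed by -0.24, -0.14 and -0.05 in the 3 lines, none of which passed (adjusted p 0.68 to 0.845).

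DUSP5, which acts on ERK in the nucleus, gave the only call among the 9 genes in MCF10A. It lies on chromosome 10, bases 110497907 to 110511533 of the plus strand. Its values were 3203, 3890 and 3756 in control and 1851, 1730 and 1088 in M3. Every M3 library was below every control, and the mean fell from 3617 ± 364 to 1556 ± 410 (SD, n = 3 each). The log2 change was -1.25 ± 0.22 (SE, adjusted p = 0.0279, limma). The size of the change held without any of the 6 libraries (-1.39 to -1.01), but the call was lost without control b or c or M3 a, b or c (adjusted p 0.0688 to 0.105), without the intensity trend (adjusted p = 0.0774) and in a joint fit of all 18 libraries (adjusted p = 0.276).

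In MCF10AT1 the DUSP5 values were widely scattered, at 4398, 1603 and 2741 in control and 771, 2387 and 6634 in M3. M3 library a was the lowest and M3 library c the highest of the 6, so the groups overlapped fully (log2 -0.22 ± 0.72 SE, adjusted p = 0.875), and the sign turned to 0.57 without M3 library a. In MCF10CA1h, DUSP5 stood at 1796, 994 and 1285 in control and at 1814, 1086 and 1181 in M3, a change of 0.01 (adjusted p = 0.988). The MCF10CA1h controls were all below the 3 MCF10A controls, by 2.73-fold (log2 -1.45, SE 0.35, adjusted p = 0.0107).

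DUSP6, the cytoplasmic ERK phosphatase, separated the control lines. It lies on chromosome 12, bases 89347235 to 89352501, and overlaps a long non-coding RNA gene on the other strand. Control libraries stood at 10738, 9722 and 7810 in MCF10A, at 2687, 1497 and 6143 in MCF10AT1, and at 13587, 9696 and 10375 in MCF10CA1h. All MCF10AT1 controls were below all controls of the other 2 lines, which overlapped each other. DUSP6 was 3.21-fold lower in MCF10AT1 than in MCF10A (log2 -1.68, SE 0.43, adjusted p = 0.0201) and 3.81-fold higher in MCF10CA1h than in MCF10AT1 (log2 1.93, SE 0.43, adjusted p = 0.0122). The former call was lost without MCF10A control b or c or MCF10AT1 control a (adjusted p 0.0524 to 0.0697), and the latter without MCF10CA1h control a (adjusted p = 0.0543).

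DUSP6 in M3 libraries was 11275, 13237 and 12167 in MCF10A, 1874, 3249 and 14861 in MCF10AT1, and 13953, 7525 and 9906 in MCF10CA1h. In MCF10AT1 2 of these libraries lay among their controls and library c was above every other DUSP6 value in the study, giving a log2 change of 0.62 ± 0.78 (SE, adjusted p = 0.648) that turned to -0.24 without library c. In MCF10A the 3 M3 libraries exceeded the 3 controls by 0.39, which did not pass (adjusted p = 0.262). Between MCF10AT1 and MCF10A M3 libraries DUSP6 differed by -1.44 (adjusted p = 0.0528), and by -2.31 without MCF10AT1 M3 library c (adjusted p = 2.78e-05).

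DUSP4, an inducible nuclear phosphatase of the same family on chromosome 8, varied least of the feedback genes over the 18 libraries (root-mean-square deviation of 0.41 on the log2 scale, against up to 1.02). Control libraries stood at 6114, 7405 and 5846 in MCF10A, 7956, 5261 and 6947 in MCF10AT1, and 5727, 4951 and 5886 in MCF10CA1h, and no pair of control lines passed (adjusted p 0.363 to 0.874). M3 libraries stood at 6923, 8626 and 7847 in MCF10A, 8282, 11582 and 16506 in MCF10AT1, and 5854, 5938 and 6760 in MCF10CA1h. The MCF10AT1 M3 libraries were all above their controls, by 0.81 ± 0.33 (SE, adjusted p = 0.154), which passed only in the joint fit of 18 libraries (adjusted p = 0.00849). MCF10AT1 M3 exceeded MCF10CA1h M3 (log2 -0.92 for MCF10CA1h minus MCF10AT1, SE 0.22, adjusted p = 0.00748). Its excess over MCF10A M3 of 0.59 (adjusted p = 0.0411) was lost under 11 of 18 alternatives, 8 of them the omission of a library, and shrank to 0.33 without MCF10AT1 M3 library c and to 0.20 with equal sums.

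SPRY4, the Sprouty gene with the widest changes here, lies on chromosome 5, bases 142310427 to 142326455 of the minus strand, where the antisense gene SPRY4-AS1 overlaps it. Control libraries stood at 1535, 2634 and 5182 in MCF10A, at 603, 562 and 1098 in MCF10AT1, and at 1036, 1255 and 1271 in MCF10CA1h. Both other lines were below MCF10A in every control library. SPRY4 was 3.83-fold lower in MCF10AT1 (log2 -1.94, SE 0.41, adjusted p = 0.0111) and 2.33-fold lower in MCF10CA1h (log2 -1.22, SE 0.41, adjusted p = 0.0423). The call for MCF10CA1h was lost under 9 of 18 alternatives, among them the omission of MCF10A control b or c, MCF10AT1 control a, or any MCF10CA1h control, and the difference was -0.77 without MCF10A control c.

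M3 libraries of SPRY4 stood at 1279, 1540 and 1489 in MCF10A, at 2219, 4848 and 10221 in MCF10AT1, and at 1513, 1422 and 1191 in MCF10CA1h. In MCF10AT1 every M3 library was above every control, and the mean rose from 754 ± 299 to 5763 ± 4079 (SD, n = 3 each). The log2 change was 2.73 ± 0.54 (SE, 6.65-fold, adjusted p = 0.0127, limma). Leaving out 1 library gave changes of 2.19 to 3.29, and the call was lost without control a (adjusted p = 0.0618) or M3 b (adjusted p = 0.0543). In MCF10A the change was -0.95 ± 0.38 (SE, adjusted p = 0.232), with the groups apart except for control a, without which it passed at -1.37 (adjusted p = 0.0223). In MCF10CA1h it was 0.21 (adjusted p = 0.317).

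As a test of the difference between lines, the SPRY4 change in MCF10AT1 exceeded that in MCF10A by 3.68 ± 0.64 (SE, adjusted p = 0.000538), and that in MCF10CA1h was lower than in MCF10AT1 by a log2 difference of -2.52 ± 0.64 (SE, adjusted p = 0.011). Both were past the threshold of 0.05 under every alternative, and 1 of 9 genes passed in the second comparison, against 18.2% of all genes, or 8.51% downward. Between M3 lines SPRY4 was 3.34-fold higher in MCF10AT1 than in MCF10A (log2 1.74, SE 0.42, adjusted p = 0.00437), the opposite direction to the controls, which rest on other libraries. MCF10CA1h and MCF10A M3 libraries overlapped (log2 -0.07, adjusted p = 0.907).

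SPRY2, which restrains growth factor signalling in the same way, had its lowest group means in MCF10CA1h. Control libraries stood at 1114, 1759 and 3456 in MCF10A, 1378, 542 and 1227 in MCF10AT1, and 517, 588 and 627 in MCF10CA1h, and M3 libraries at 1415, 1248 and 1716, at 342, 641 and 1505, and at 509, 324 and 451. MCF10CA1h lay below MCF10A without overlap in both arms, while MCF10AT1 overlapped each of the others. MCF10CA1h was 3.28-fold lower than MCF10A in controls (log2 -1.72, SE 0.44, adjusted p = 0.014), a call lost without MCF10CA1h control a (adjusted p = 0.052), and 3.44-fold lower in M3 libraries (log2 -1.78, SE 0.43, adjusted p = 0.00689). MCF10AT1 against MCF10A gave -0.96 in controls (adjusted p = 0.12) and -1.06 in M3 libraries (adjusted p = 0.0515), the latter passing, at -1.63, without MCF10AT1 M3 library c (adjusted p = 0.000437). M3 against control gave -0.39, -0.49 and -0.45 in the 3 lines, none of which passed (adjusted p 0.123 to 0.638).

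SPRED1, on chromosome 15, had its lowest values in MCF10AT1. Control libraries stood at 521, 902 and 861 in MCF10A, 214, 92 and 696 in MCF10AT1, and 311, 428 and 349 in MCF10CA1h. MCF10AT1 control c lay among the MCF10A values, far above a and b, and the control difference of -1.62 did not pass (adjusted p = 0.0671), whereas it was -2.39 without that library (adjusted p = 0.00147). In M3 libraries SPRED1 stood at 805, 864 and 1061 in MCF10A, 131, 149 and 258 in MCF10AT1, and 318, 272 and 303 in MCF10CA1h, and the 3 lines were apart. It was 5.24-fold lower in MCF10AT1 than in MCF10A (log2 -2.39, SE 0.26, adjusted p = 3.12e-05) and 3.03-fold lower in MCF10CA1h (log2 -1.60, SE 0.26, adjusted p = 0.000773). The difference of 0.79 between MCF10CA1h and MCF10AT1 M3 (adjusted p = 0.0292) was lost without MCF10AT1 M3 a or b or any MCF10CA1h M3 library (adjusted p 0.0552 to 0.0952) and in the joint fit (adjusted p = 0.207). M3 against control passed in no line (adjusted p 0.291 to 0.696).

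PHLDA1 lies on chromosome 12, bases 76025447 to 76031776 of the minus strand, and overlaps PHLDA1-AS1 on the other strand. Control libraries stood at 11597, 14007 and 19473 in MCF10A, at 3633, 3552 and 4554 in MCF10AT1, and at 8639, 6581 and 7469 in MCF10CA1h. The 3 lines did not overlap, with MCF10A highest and MCF10AT1 lowest. Every step of this order passed: PHLDA1 was 3.77-fold lower in MCF10AT1 than in MCF10A (log2 -1.92, SE 0.22, adjusted p = 0.000911), 1.95-fold lower in MCF10CA1h than in MCF10A (log2 -0.97, SE 0.22, adjusted p = 0.00919), and 1.93-fold higher in MCF10CA1h than in MCF10AT1 (log2 0.95, SE 0.22, adjusted p = 0.0163). The last call was lost without MCF10AT1 control a, MCF10CA1h control a or MCF10CA1h control c (adjusted p 0.0593 to 0.075).

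M3 libraries of PHLDA1 stood at 10356, 13944 and 14349 in MCF10A, at 6565, 7719 and 13332 in MCF10AT1, and at 8811, 8511 and 8647 in MCF10CA1h. In MCF10AT1 all M3 libraries were above all controls, and the mean rose from 3913 ± 556 to 9205 ± 3620 (SD, n = 3 each). The log2 change of 1.17 ± 0.32 (SE, adjusted p = 0.0493, limma) was at the threshold, and it was lost without any 1 of the 6 libraries (adjusted p 0.0504 to 0.176) and under 4 other alternatives. The change in MCF10AT1 minus that in MCF10A, 1.38 ± 0.34 (SE, adjusted p = 0.00815), was past the threshold of 0.05 under every alternative. MCF10CA1h minus MCF10AT1 gave -0.97 (adjusted p = 0.0611), and an adjusted p of 0.00861 with the replicate letter as a block within each line, though the letters did not pair the MCF10CA1h libraries. In MCF10A the change was -0.20 (adjusted p = 0.69) and in MCF10CA1h 0.20 (adjusted p = 0.241).

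**Figure D2:**
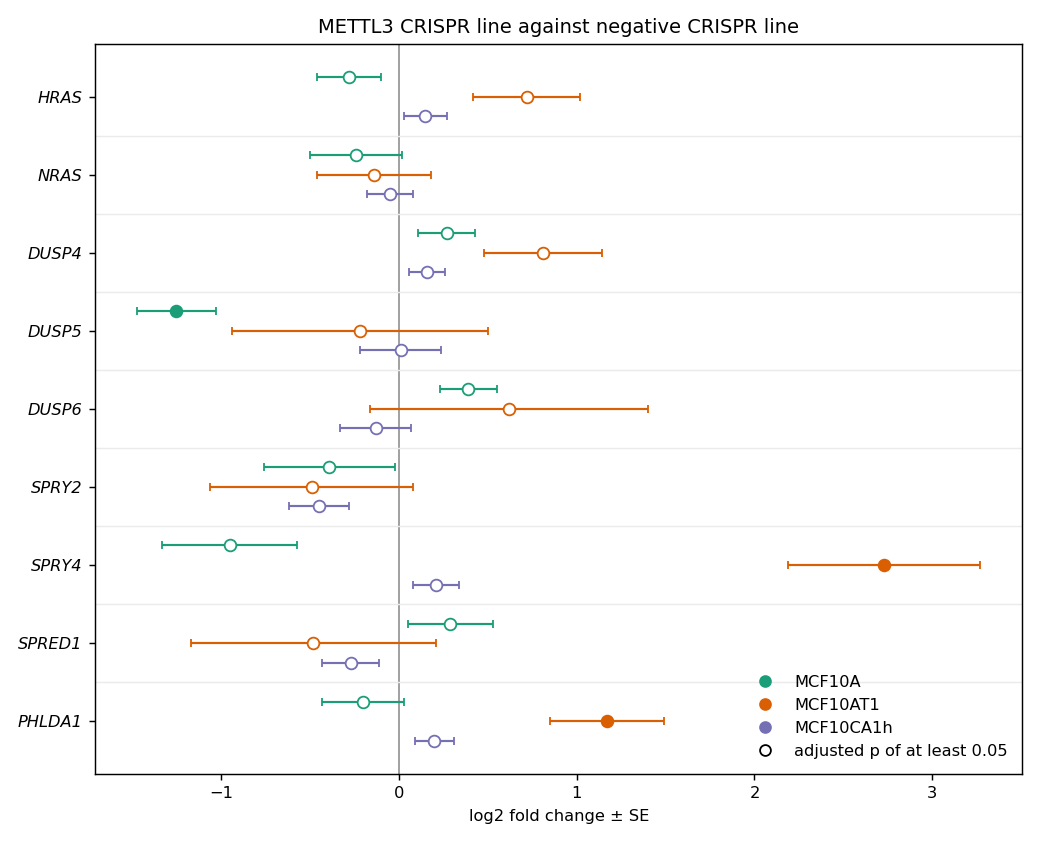
Log2 fold change of M3 against control (points, with bars of 1 SE) for each of the 9 genes in MCF10A, MCF10AT1 and MCF10CA1h (3 libraries per group), filled where the adjusted p was under 0.05. DUSP5 in MCF10A (-1.25) and SPRY4 (2.73) and PHLDA1 (1.17) in MCF10AT1 are filled, and all MCF10CA1h values lie between -0.45 and 0.21.

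In 4 of the 6 MCF10AT1 libraries all 7 feedback genes deviated from their group means to the same side. In M3 library c all 7 were above their group mean, by 1.02 on the log2 scale on average, and in M3 library a all 7 were below it, by 0.89 (mean deviation -0.89). In the MCF10AT1 controls, library b was below the group mean for all 7 (mean -0.68) and library c above it for all 7 (mean 0.55). In MCF10CA1h the mean deviation of a library stayed between -0.18 and 0.20. The median SD of log2 values over the 9 genes was 0.53 in MCF10AT1 control and 0.54 in MCF10AT1 M3, against 0.17 to 0.38 in the other groups, while over all 12460 genes with a mean of at least 50 it was 0.50 and 0.38 in MCF10AT1 and 0.16 to 0.29 elsewhere. Of all 12460 genes, 46.5% to 54.1% were above their group mean in each MCF10AT1 library, and 3 of the 7 were above it in control library a and 2 in M3 library b. That share does not show whether other sets of genes moved together, which was not tested. Outside the 7, PTPN11 also stood apart in MCF10AT1 control c (3570, against 1006 and 682 in a and b). MAP2K2 was lowest there (3263, against 5744 and 10238), though all 3 of its control libraries were far apart. Both genes were picked after their values were seen.

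**Figure D3:**
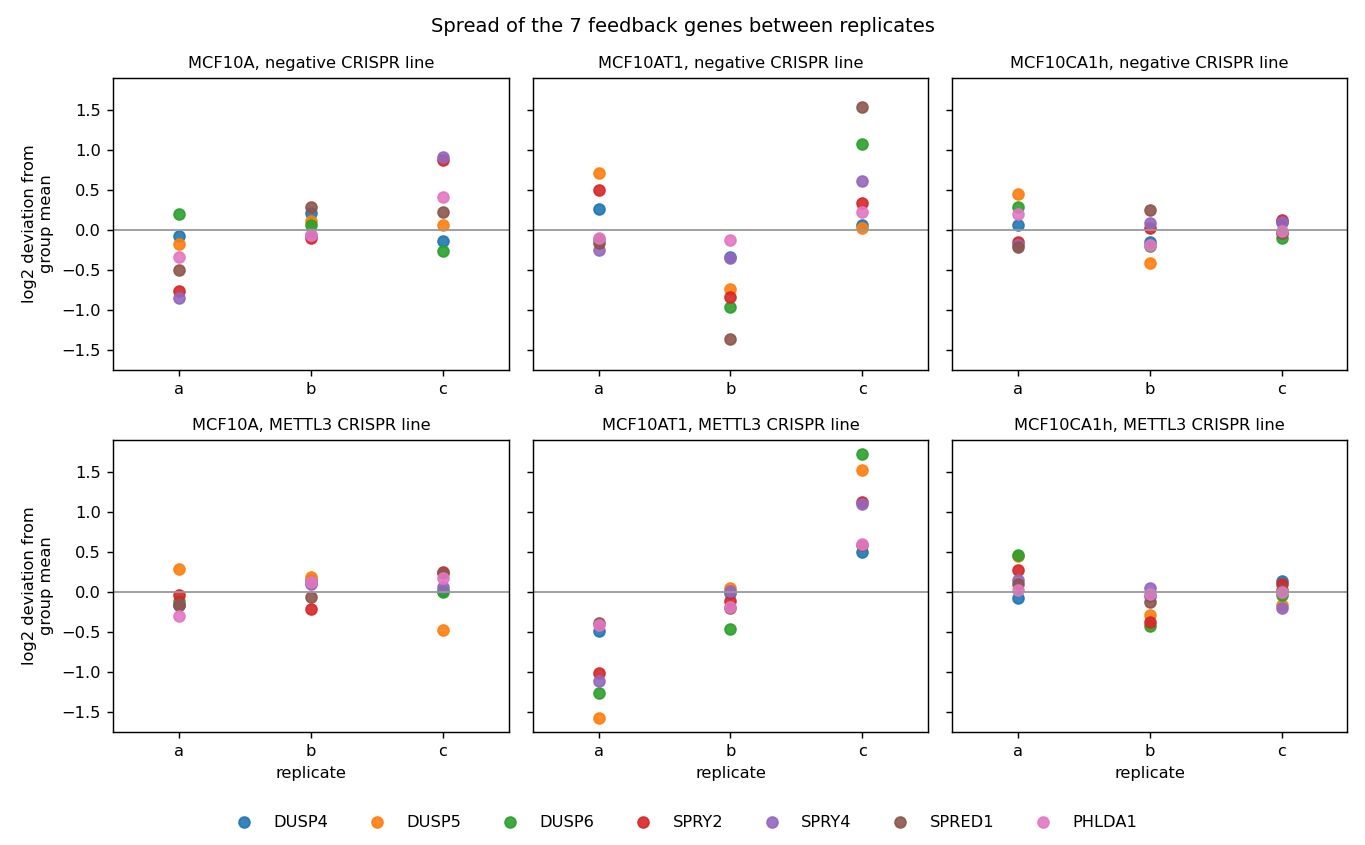
Deviation of each library's log2 value from its group mean for the 7 feedback genes, a panel per group, with replicates a, b and c on the horizontal axis. All 7 points lie below 0 for MCF10AT1 M3 library a and control library b, and above 0 for library c of both groups, while the MCF10CA1h panels are narrow.

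Between control lines, which asks how the genes stand along the progression series, the calls were mostly lower values than in MCF10A. In MCF10AT1 against MCF10A, 4 of 9 passed (NRAS, DUSP6, SPRY4 and PHLDA1), all lower, against 28.1% of all genes in either direction and 14.7% lower. The libraries did not overlap for 5 of 9, against 37.5% of all genes. In MCF10CA1h against MCF10A, 4 of 9 passed (DUSP5, SPRY2, SPRY4 and PHLDA1), all lower, against 37.8% and 18.8%. In MCF10CA1h against MCF10AT1, 2 of 9 passed (DUSP6 and PHLDA1), both higher, against 21.8% and 11.0%. The median log2 difference of the 9 genes was -1.35, -0.97 and 0.58 in these comparisons, beside -0.01, -0.06 and 0.05 over all genes. None of the 7 feedback genes was called higher in a line that carries the introduced HRAS than in MCF10A among controls. Of all 15652 genes tested, 2083 were called higher in MCF10AT1 and 2979 in MCF10CA1h. At such shares 0 of 7 does not set these genes apart. Of 21 further feedback regulators tested, 2 were higher and 5 lower in MCF10AT1 than in MCF10A controls, against 2083 and 2308 of all 15652 genes. In MCF10CA1h against MCF10A controls 3 of these 21 were higher and 7 lower, against 2979 and 2941 of all 15652 genes.

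Between M3 lines 5 of 9 passed in MCF10AT1 against MCF10A (63.6% of all genes, 32.0% higher and 31.6% lower), with HRAS, DUSP4 and SPRY4 higher and NRAS and SPRED1 lower. In MCF10CA1h against MCF10A 3 of 9 passed (48.8% of all genes, 25.7% higher and 23.1% lower), with HRAS higher and SPRY2 and SPRED1 lower. In MCF10CA1h against MCF10AT1 5 of 9 passed (46.4% of all genes, 24.1% higher and 22.3% lower), with HRAS, DUSP4 and SPRY4 lower and NRAS and SPRED1 higher. For the change in MCF10CA1h minus that in MCF10A, 0 of 9 passed in limma, against 5.34% of all genes called. Of the 9, 0 had an unadjusted p under 0.05 there, against 2775 of all 15897 genes tested.

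**Figure D4:**
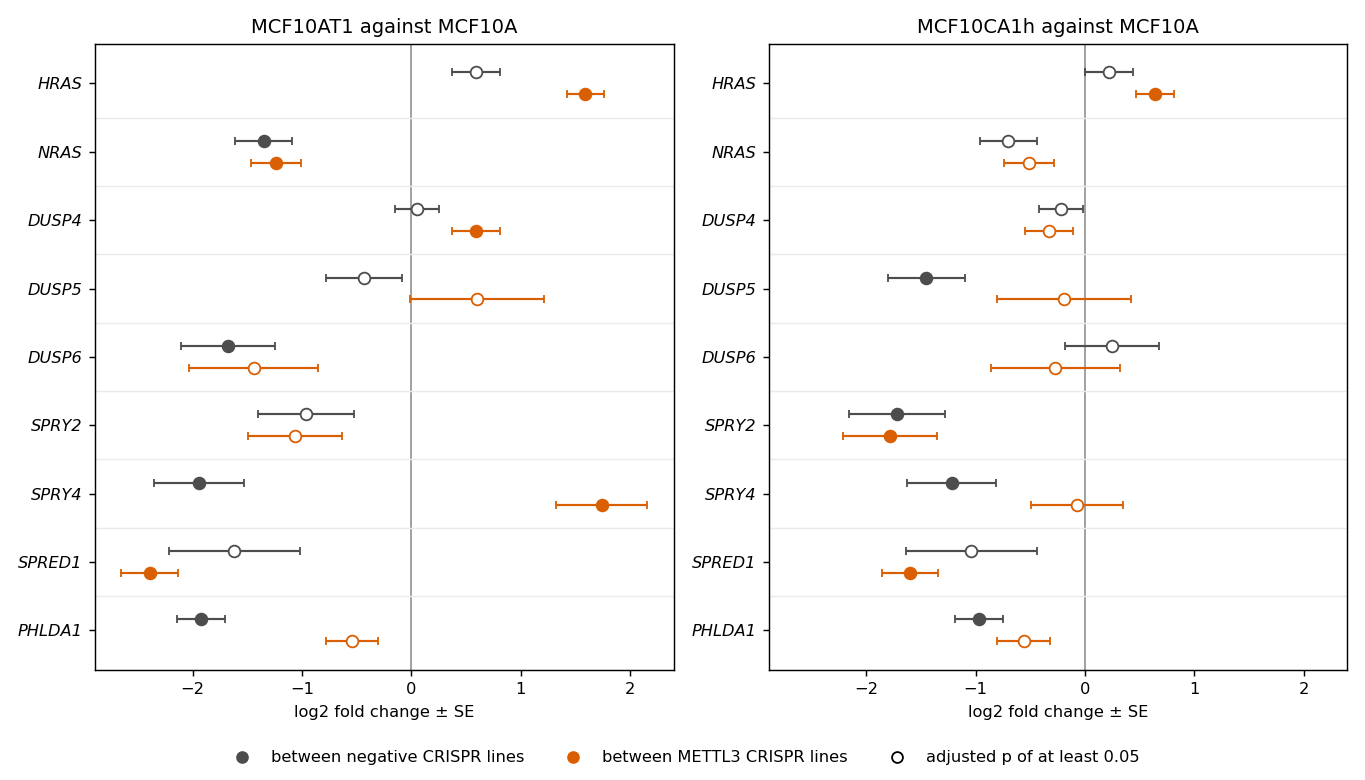
Log2 fold change (points, with bars of 1 SE) of MCF10AT1 and of MCF10CA1h against MCF10A for each of the 9 genes, between control lines in grey and between M3 lines in orange, filled where the adjusted p was under 0.05 (3 libraries per group). SPRY4 in MCF10AT1 lies at -1.94 between controls and at 1.74 between M3 lines, and NRAS lies at -1.35 and -1.24.

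Other genes of the pathway were read in 4 lists, beside the 2.65% of all genes called in MCF10A, the 13.0% in MCF10AT1 (7.07% higher and 5.96% lower) and the 12.8% in MCF10CA1h. Of the RAS family and its regulators, 26 were tested in MCF10AT1, where 3 were higher in M3 (MRAS at 2.64, SHC1 at 2.07 and RRAS at 1.90 on the log2 scale) and 3 lower (RASAL1 at -3.28, RALA at -1.58 and RALB at -1.34), with a list median of -0.48. RASAL1 encodes a GTPase-activating protein that turns RAS off, and SHC1 an adaptor that links receptors to RAS activation. In MCF10A 1 of 26 passed, RRAS at -1.24 (adjusted p = 0.0316), with a list median of -0.18. In MCF10CA1h 3 of 27 were higher (RRAS at 1.21, RALB at 0.39 and SHC1 at 0.38) and 2 lower (RASAL1 at -1.20 and DAB2IP at -0.89), with a list median of 0.07. RRAS, a RAS relative with its own effects on adhesion, thus passed in opposite directions, and its change in MCF10AT1 exceeded that in MCF10A by 3.14 ± 0.40 (SE, adjusted p = 2.86e-05) and that in MCF10CA1h exceeded it by 2.44 ± 0.40 (SE, adjusted p = 0.00172). RRAS in MCF10AT1, RALA, RALB in both lines and SHC1 in MCF10CA1h fall outside the naming rule and were named after their values were seen.

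In the RAF, MEK and ERK cascade 0 of 16 genes passed in MCF10A and 0 of 16 in MCF10AT1 (limma). At an unadjusted p under 0.05 there were 3 and 5, against 2839 of 15416 and 4425 of 16050 genes tested. In MCF10CA1h 2 of 17 were higher: MAP2K1, which encodes the ERK kinase MEK1, at 0.73 ± 0.09 (SE, adjusted p = 0.000965), and RPS6KA2, a ribosomal S6 kinase below ERK, at 0.64 ± 0.18 (SE, adjusted p = 0.043). The list medians were -0.18, -0.13 and -0.02 in the 3 lines, and 2.65%, 13.0% and 12.8% of all genes were called.

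Of 21 further feedback regulators tested, 1 was higher and 1 lower in M3 in MCF10A, SPRY1 at 1.41 (adjusted p = 0.0358) and RGS2, which quenches G protein signalling, at -2.16 (adjusted p = 0.0128). In MCF10AT1 3 were higher (SPRED3 at 2.94, the cytokine signalling inhibitor SOCS3 at 2.24 and PHLDA2 at 1.68) and 2 lower (RASAL1 at -3.28 and TRIB1 at -2.01). In MCF10CA1h 5 were higher (SPRED3 at 2.03, DUSP8 at 1.39, RGS2 at 0.70, PHLDA2 at 0.58 and SPSB1 at 0.47) and 2 lower (RASAL1 at -1.20 and SPRY1 at -0.93). SPRED3, the relative of SPRED1, was thus higher in M3 in 2 lines, and its changes exceeded that in MCF10A by 4.33 ± 0.50 in MCF10AT1 (SE, adjusted p = 1.02e-05) and by 3.43 ± 0.50 in MCF10CA1h (SE, adjusted p = 0.00068). The list medians were -0.16, -0.12 and 0.21, and again 2.65%, 13.0% and 12.8% of all genes were called. PHLDA2, TRIB1, DUSP8, SPSB1 and, in MCF10CA1h, RGS2 were named after their values were seen.

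Of 26 ERK targets tested, 6 were lower and 2 higher in the MCF10AT1 M3 libraries, against 5.96% and 7.07% of all genes. Of the 6, KLF6 fell from a mean of 12377 to 544 (log2 -4.45, SE 0.64, adjusted p = 0.0029), EGR2 from 339 to 20.7 (log2 -3.90, SE 0.76, adjusted p = 0.0117) and FOS from 27301 to 4936 (log2 -2.55, SE 0.54, adjusted p = 0.0174). The other 3 were FOSB, EGR1 and JUN, which like FOS and EGR2 encode transcription factors induced within minutes of stimulation. ETV4, an ETS factor, was higher in MCF10AT1 at 1.33 (adjusted p = 0.038), as was PLAUR, the urokinase receptor, at 1.18 (adjusted p = 0.0263), and the list median was -0.05. In MCF10A EGR3 was higher at 2.01 (adjusted p = 0.0259) and PLAUR lower at -1.29 (adjusted p = 0.0172), with a list median of 0.04 and 2.65% of all genes called. In MCF10CA1h 4 were higher (PLAUR at 0.58, ELK3 at 0.53, EPHA2 at 0.49 and CCND1 at 0.37) and 3 lower (EGR3 at -1.17, MYC at -0.49 and ETV4 at -0.36), with a list median of -0.15 and 12.8% of all genes called. FOSB, EGR1, JUN, ETV4, EPHA2, CCND1, MYC and, in MCF10AT1, PLAUR were named after their values were seen.

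**Figure D5:**
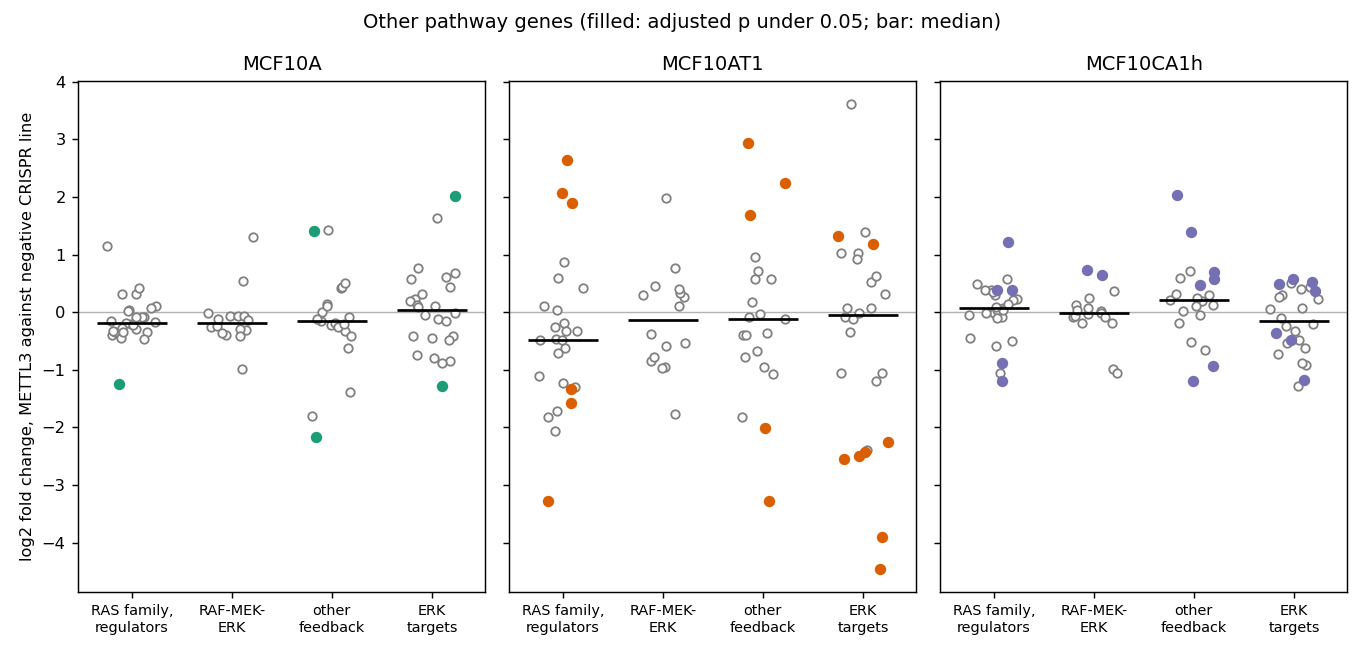
Log2 fold change of M3 against control for each tested gene of the 4 pathway lists in each line, filled where the adjusted p was under 0.05, with a bar at the list median and horizontal scatter added for legibility. The widest spread is in MCF10AT1, where KLF6 lies at -4.45 and SPRED3 at 2.94, and the medians run from -0.48 to 0.21.

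Likeness of pattern was measured as the root-mean-square difference of log2 values, each centred on its gene's mean, over the 18 libraries and among 12460 genes with a mean of at least 50. The nearest gene to HRAS was TMEM222 at 0.19, followed by HEXA and CARD19 at 0.21, and NLN and EIF1AX lay at 0.19 from NRAS with DNM1L at 0.22. Nearest to DUSP5 was ERRFI1, an inhibitor of the EGF receptor, at 0.45, then CPNE7 and TBC1D8 at 0.54, and nearest to DUSP6 were EPS8 at 0.35, TIPARP at 0.43 and IMPA1 at 0.44. SPRY4 was followed most closely by the integrin subunit ITGA3 at 0.41 and by SHC1 and APLP2 at 0.45.

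For SPRED1 the nearest were OTUD4 and ERBIN at 0.20 and THAP5 at 0.21, for DUSP4 KIAA0319L at 0.21, ZBTB22 at 0.23 and EFNA5 at 0.24, for SPRY2 FBXL4 at 0.31 and CAB39L and LMO4 at 0.35, and for PHLDA1 KHDC4 and ZNF134 at 0.31 and FAM114A2 at 0.32. The nearest of 12460 genes is at least as near as the nearest of the 9 by construction. Setting these distances side by side therefore does not show how alike the 9 genes are. The nearest of the 9 to SPRY4 was PHLDA1 at 0.78, with 175 other genes nearer, and the nearest to HRAS was DUSP4 at 0.48, with 1860 nearer. All these libraries share their normalization and the 6 group means, so these values are a description.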

How the data were processed

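RNA of 18 libraries (3 cell lines, control and METTL3 CRISPR lines, 3 each) was sequenced by the authors from stranded libraries. Whether polyA selection or ribosomal RNA depletion was used is stated differently in the study's sources and is not settled here. Per the study's methods and the submitters' processing notes the authors pseudo-aligned reads to the hg38 transcriptome with Kallisto 0.46.1, summed to genes with tximport and normalized with DESeq2 1.26.0 in R 4.1.1. The annotation release and the strand setting are not given in the sources used here. The deposited signal is a normalized count with 2 decimals that includes library scaling and was not divided by gene length. Whether differences in transcript length between libraries entered that scaling was not settled here. Between 14.9% and 37.1% of low values lay at whole multiples (within 0.02) of the commonest low value, so whole reads were not recovered, no count model was run and the depth behind each gene's value is unknown. The 24646 rows without values were left out. Symbols were found for 35894 of 35933 genes.

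Groups came from the labels. The test was limma 3.58.1 (R 4.3.3) on log2(value + 1) with an intensity trend, keeping genes whose mean in the fitted libraries reached 10, with Benjamini-Hochberg adjustment over all genes tested and a threshold of 0.05. Fold changes are therefore on the log2(value + 1) scale, which understates changes of low genes. Within-line comparisons used 6 libraries, comparisons between lines the 9 libraries of an arm, and differences of changes all 18. Comparisons between lines within an arm share libraries, as do the interactions. The code was tested on simulated data. Alternatives were pseudocounts of 0.5 and 5, a minimum of 50 and no filter, no trend, a threshold of 0.01, median-of-ratios factors, equal sums, a joint fit, the replicate letter as a block, and leaving out each library. Same-lettered M3 and control libraries deviated together from their group means over 15897 genes in MCF10A (correlations 0.22, 0.20 and 0.12) and MCF10AT1 (0.11, 0.29 and 0.48), and not in MCF10CA1h (-0.01, 0.02 and 0.05). By that measure alone, since no label says what a letter marks, the letters could mark pairs in the first 2 lines. The main fits used group means only and no pairs. The letter entered only the block alternative, and there in every line.

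Coordinates are hg38 from GENCODE 44. All 9 genes, METTL3, the marker genes and the 3 nearest genes of each of the 9 were named, and from each pathway list up to 3 called genes with the largest change and a mean of at least 50. The epithelial markers were CDH1, EPCAM, KRT5, KRT14, KRT17, TP63, KRT8, KRT18, ESRP1 and LAMB3. The mesenchymal markers were VIM, FN1, CDH2, COL1A1, COL3A1, COL6A2, THY1, PDGFRB and ZEB1, and their levels are given only as sums. Genes and lists were chosen with earlier results of these data known.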

Additional observations from a re-analysis of the deposited data

Results flagged for a closer look

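For 3 of the 9 genes the change between M3 and control differed between lines by a test of the difference itself. HRAS changed more in MCF10AT1 than in MCF10A by 1.00 on the log2 scale (adjusted p = 0.0163, limma), with group means of 15097 and 24372 in MCF10AT1 control and M3 and of 9827 and 8183 in MCF10A. PHLDA1 did so by 1.38 (adjusted p = 0.00815), with means of 3913 and 9205 in MCF10AT1 and of 15026 and 12883 in MCF10A.

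SPRY4 differed in the same comparison by 3.68 (adjusted p = 0.000538), with means of 754 and 5763 in MCF10AT1 and of 3117 and 1436 in MCF10A, and between MCF10CA1h and MCF10AT1 by -2.52 (adjusted p = 0.011), with means of 1187 and 1375 in MCF10CA1h. All 3 MCF10AT1 M3 libraries were above the 3 controls for each of these genes. For PHLDA1 the MCF10AT1 M3 mean was near that of MCF10CA1h M3 (8656, adjusted p = 0.956), and the MCF10AT1 control lay below the controls of both other lines. The HRAS call ended without MCF10A M3 library c (adjusted p = 0.0508) and with equal sums (adjusted p = 0.0509). The epithelial and mesenchymal marker sums also differed between the MCF10AT1 groups, and their part in these differences was not tested.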

How the results depend on the processing

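Of 108 results (9 genes in 12 comparisons) 30 were called, and 17 of these were past the threshold of 0.05 under every alternative. No called value changed sign, and 24 results that were not called did. Under some alternative 24 uncalled results passed, 2 of which are among those that changed sign under another. Groups of 3 and an unknown depth per gene limit all of this, and leaving out a library leaves a group of 2. The cause of the changes below was not tested.

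At an adjusted p under 0.01 the number of the 9 genes called was 0 for M3 against control in MCF10A and in MCF10AT1, 2, 1 and 0 between controls (MCF10AT1 and MCF10CA1h against MCF10A, and MCF10CA1h against MCF10AT1), 3 between M3 lines MCF10CA1h and MCF10AT1, and 0 for the change in MCF10CA1h minus that in MCF10AT1. In MCF10A the count was 0 without the intensity trend and 0 in the joint fit. In MCF10AT1 it was 1 with a pseudocount of 0.5, without a filter, without the trend and with equal sums, and 4 in the joint fit. Leaving out 1 library gave 0 to 2 in MCF10A, 0 to 1 in MCF10AT1, 2 to 6 for controls MCF10CA1h against MCF10A, 0 to 4 for controls MCF10CA1h against MCF10AT1, 3 to 6 for M3 lines MCF10CA1h against MCF10AT1, and 1 to 3 for the change in MCF10CA1h minus that in MCF10AT1. With the replicate block the last count was 2 (PHLDA1 added), and DUSP6 (adjusted p = 0.0467) and SPRY2 (adjusted p = 0.0351) passed between M3 lines MCF10AT1 and MCF10A, where the same letter joins libraries of different lines and nothing in the labels or the data examined ties them. The block changed no other call of the 9 genes.

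Bringing libraries to equal sums moved the median of all genes from 0.02 to -0.15 in MCF10AT1 M3 against control, from 0.02 to -0.38, from -0.01 to -0.18 and from 0.04 to 0.26 between M3 lines (in the order above), from -0.01 to -0.15 and from 0.05 to 0.16 between controls MCF10AT1 and MCF10A and controls MCF10CA1h and MCF10AT1, and from 0.00 to -0.26, from -0.03 to -0.17 and from -0.01 to 0.10 for the differences of changes. Calls over all genes between M3 lines MCF10AT1 and MCF10A were 5116 higher and 5050 lower as deposited and 3723 and 6424 with equal sums. They were 3850 and 3558 against 4949 and 2717 for MCF10CA1h against MCF10AT1, 1196 and 733 against 1043 and 1035 for M3 against control in MCF10CA1h, and 1773 and 1664 against 1340 and 2044 for the change in MCF10AT1 minus that in MCF10A. Signs turned for DUSP5 in MCF10CA1h M3 against control (-0.05), DUSP4 between controls MCF10AT1 and MCF10A (-0.09), PHLDA1 between M3 lines MCF10CA1h and MCF10AT1 (0.20), and for NRAS (-0.15) and DUSP6 (-0.01) in the change in MCF10AT1 minus that in MCF10A.

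Leaving out 1 library turned the sign of these uncalled log2 changes, given as their ranges. In MCF10A M3 against control they were SPRY2 (-0.77 to 0.05) and PHLDA1 (-0.37 to 0.0004). In MCF10AT1 they were NRAS (-0.33 to 0.05), DUSP5 (-0.98 to 0.57), DUSP6 (-0.24 to 1.25), SPRY2 (-1.05 to 0.02) and SPRED1 (-1.16 to 0.29), and in MCF10CA1h NRAS (-0.13 to 0.04), DUSP5 (-0.22 to 0.23) and DUSP6 (-0.36 to 0.08). Between lines they were DUSP4 (-0.09 to 0.21) for controls MCF10AT1 against MCF10A, SPRED1 (-0.10 to 1.35) for controls MCF10CA1h against MCF10AT1, DUSP5 (-0.16 to 1.39) for M3 lines MCF10AT1 against MCF10A, SPRY4 (-0.15 to 0.03) for M3 lines MCF10CA1h against MCF10A and PHLDA1 (-0.23 to 0.28) for M3 lines MCF10CA1h against MCF10AT1. For the change in MCF10AT1 minus that in MCF10A they were NRAS (-0.09 to 0.33), DUSP6 (-0.62 to 0.87) and SPRY2 (-0.66 to 0.40), for MCF10CA1h minus MCF10A SPRY2 (-0.50 to 0.32), and for MCF10CA1h minus MCF10AT1 NRAS (-0.10 to 0.29), DUSP5 (-0.56 to 0.99), DUSP6 (-1.39 to 0.11), SPRY2 (-0.47 to 0.60) and SPRED1 (-0.56 to 0.89).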
